A study of Triticum aestivum with 6 samples.

Results

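The genes described here are the wheat members of the NPF family (NRT1/PTR family) apart from those similar to NPF6.3. They were taken from the deposited gene table by the name of the best-matching protein: the name had to hold NRT1/PTR family or peptide transporter PTR, and names with family number 6.3 were left out. This gave 293 of the 83219 genes in the table, spread over 32 best-match names. All but 1 of these names are Arabidopsis proteins, so a label such as NPF2.3-like stands for the closest Arabidopsis protein and not for a wheat symbol. The exception is a gene that matched a peptide transporter PTR5 without a subfamily number.

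NPF proteins are membrane carriers that couple the movement of their substrate to protons. Their known substrates in Arabidopsis include nitrate, small peptides, abscisic acid (ABA), gibberellins and glucosinolates, and related proteins of the same subfamily can differ in what they carry. In roots, members take up nitrate, load it into the xylem, release it or store it. The number before the point names the subfamily. Subfamily 8 is known for peptide transport and subfamily 4 for ABA import.

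RNA from roots of JW1, a wild-type bread wheat (Triticum aestivum), was sequenced in 3 libraries without nitrate (0N) and 3 with nitrate (2N). Seedlings of both groups germinated for 3 days, lost their endosperm, grew for 3 days at 2 mM nitrate and then for 2 days without nitrogen. For the last 3 hours 0N seedlings stood in medium with 2 mM KCl and 2N seedlings in medium with 2 mM of the potassium nitrate salt, which the labels spell KNO. Chloride thus differed together with nitrate, and the effects of nitrate and chloride cannot be told apart. No label says whether the replicates are separate cultures, so the p-values reflect the spread among these 6 libraries, which may be technical.

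Total counts were 16208512 to 16426366 in 0N and 17234970 to 17645686 in 2N. A label for the cell line names leaf tissue, although the tissue label is root. Root markers summed to 770 to 919 TPM in 0N and 730 to 903 TPM in 2N, led by the silicon transporters LSI2 and NIP2-1 and by Casparian strip membrane protein 1. Of 65 root marker genes, 3 had no counts. Of the 40 that were tested, 7 rose and 5 fell, against 7.57% and 7.93% of all tested genes. Markers of green tissue were also present. Their 114 genes, 17 of them at 0 in all libraries, summed to 310 to 683 TPM in 0N and 163 to 322 TPM in 2N, with the highest value in 0N replicate 3. Of the 69 tested green markers, 23 fell and 46 did not pass, and the part of this difference in the NPF results was not tested. As these are whole roots, fewer cells of a type and less RNA per cell cannot be told apart.

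More NPF genes fell than rose with nitrate. After the filter on low counts 185 of the 293 members were tested, and 51 of them fell while 14 rose and 120 did not pass (edgeR's quasi-likelihood test, adjusted p under 0.05 over all tested genes). The 51 falls were 27.6% of the tested members, against 7.93% of all 54313 tested genes. The 14 rises were 7.57% of the tested members, the same share as among all tested genes (7.57%). The median log2 fold change of the tested members was -0.22, against 0.00 (rounded) over all tested genes. The falls spanned -2.47 to -0.39 on the log2 scale with a median of -0.84. Of the 185 tested members 18 fell at least 2-fold, while 3.17% of all tested genes did so. The rises spanned 0.48 to 1.66, and 3 of the 185 rose at least 2-fold, while 2.13% of all tested genes did so. In 74 of the 185 every 2N library lay below every 0N library, which held for 16.2% of all tested genes. In 20 of the 185 every 2N library lay above, which also held for 16.2% of all tested genes. Members that passed the filter only through the group where they were high are biased towards a difference. These shares thus describe the tested members and not the family.

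The other 108 members had little or no RNA here. Of these, 18 had 0 counts in every library, and the highest value of any untested member in any library was 0.95 TPM. All 4 genes similar to NPF1.2, in Arabidopsis a carrier that moves nitrate between xylem and phloem, were untested. So were all 4 similar to NPF2.13 and all 3 similar to NPF6.2, which in Arabidopsis act in nitrate movement in shoots. TraesCS3D02G297600, the highest of the NPF1.2-like genes, stood at 0.238, 0.121 and 0.117 CPM (CPM is the count scaled by the library's TMM-adjusted total) in 0N and at 0.00, 0.116 and 0.121 CPM in 2N.

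**Figure D1:**
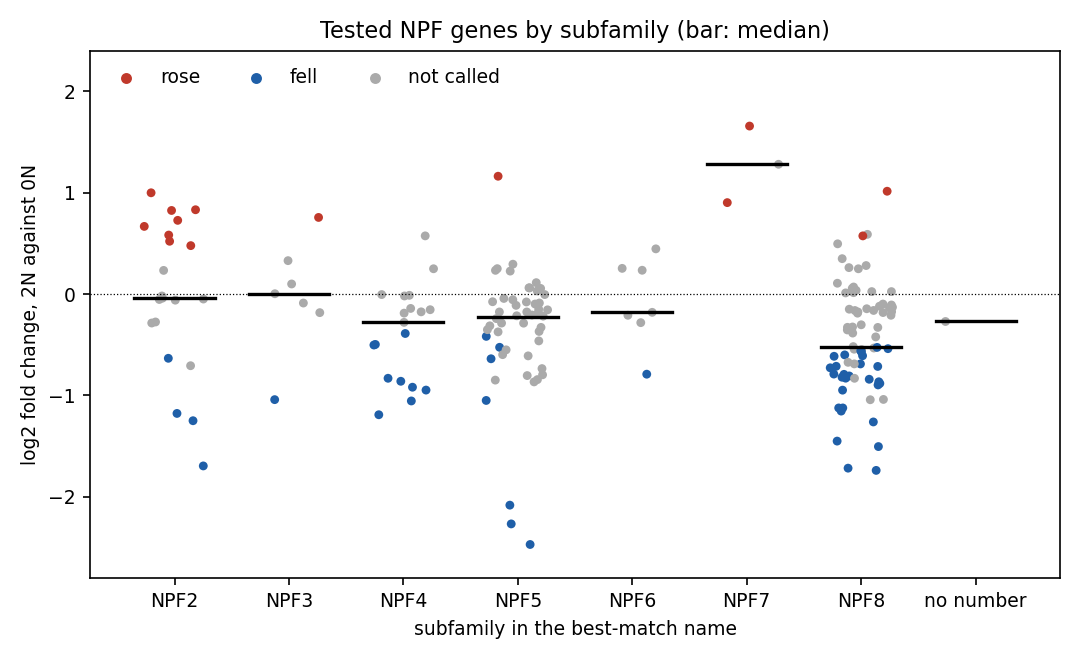
Log2 fold change (2N against 0N, vertical axis) of each of the 185 tested NPF genes by the subfamily in its best-match name, coloured by whether it rose, fell or was not called. Black bars are medians over tested members, from -0.52 in subfamily 8 to 1.28 in subfamily 7, whose 3 tested genes all lie above 0.

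Over all tested genes 7.93% fell and 7.57% rose. By subfamily, falls made up 29 of 75 tested genes in subfamily 8 and 9 of 19 in subfamily 4. There were 7 falls among 52 in subfamily 5, 4 among 21 in subfamily 2, 1 among 7 in subfamily 6 and 1 among 7 in subfamily 3. Rises were 8 in subfamily 2, 2 in subfamily 7, 2 in subfamily 8 and 1 each in subfamilies 3 and 5. The median log2 fold change was -0.52 in subfamily 8, -0.28 in subfamily 4, -0.23 in subfamily 5, -0.18 in subfamily 6 (0.22 with no filter on low counts), -0.04 in subfamily 2, 0.00 in subfamily 3 and 1.28 in subfamily 7. Genes of a subfamily share sequence and may share reads, so the subfamilies were not tested against each other.

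In TPM, which is per length and can be compared between genes, the family summed to 1366, 1250 and 1426 in the 0N libraries and to 1147, 1077 and 1116 in 2N. The groups did not overlap, and the log2 ratio of the means was -0.28 in TPM and -0.17 in TMM-scaled CPM. The deposited TPM of the median tested gene was itself shifted by -0.10 on the log2 scale. Subfamily 8 went from 398 ± 18.2 to 280 ± 10.7 TPM and subfamily 5 from 245 ± 15.5 to 168 ± 6.24 TPM (SD, n = 3). Subfamily 4 went from 67.4 ± 5.48 to 45.1 ± 2.12 TPM, and subfamily 6 from 14.9 ± 0.879 to 10.3 ± 0.374 TPM. Subfamily 7 went the other way, from 43.4 ± 17.7 to 96.0 ± 11.3 TPM. These 5 subfamilies did not overlap between groups in TPM or in CPM. Subfamily 2, the most abundant, stood at 556 ± 45.8 and 495 ± 16.5 TPM and overlapped in CPM. Subfamily 3 overlapped in both units, at 9.12 ± 0.949 and 8.68 ± 1.34 TPM.

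**Figure D2:**
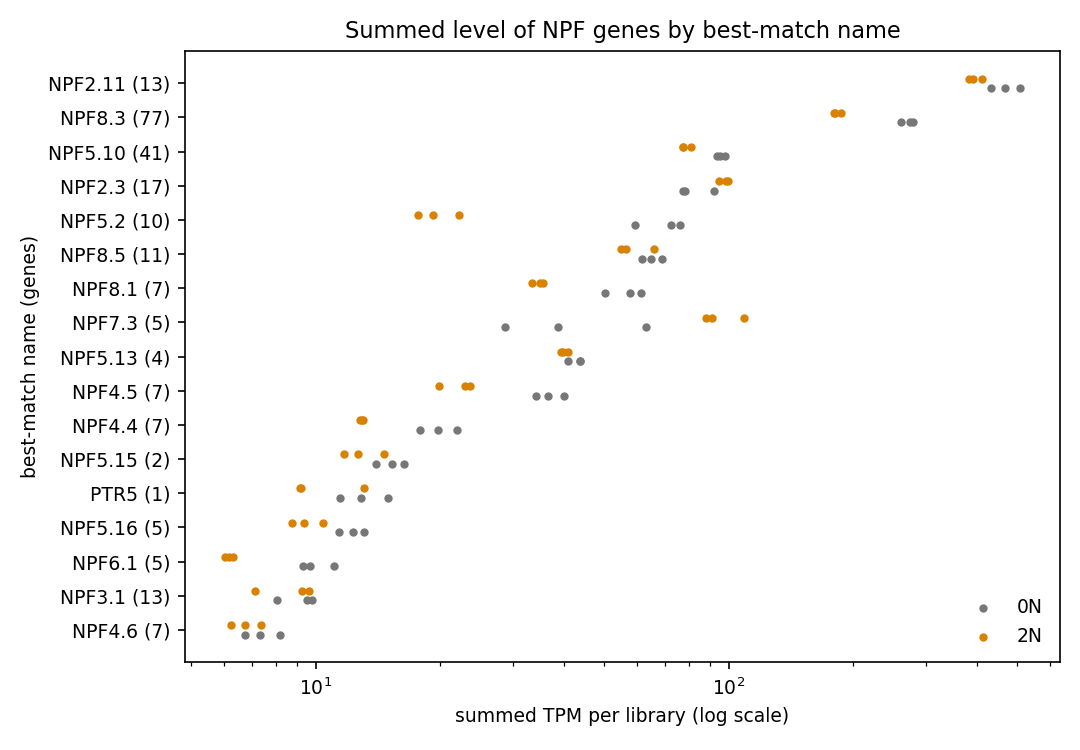
Summed TPM per library (log scale) of all members with the same best-match name, for the names with at least 5 TPM in 0N; the number of genes is in brackets, grey points are 0N and orange points 2N libraries. The NPF5.2-like sum is 69.3 TPM in 0N and 19.7 TPM in 2N, while the NPF7.3-like sum is higher in every 2N library.

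Because reads can be divided among copies of a hexaploid genome, the counts of all genes with the same name were also added up and tested as 1 row. Of 26 names with enough counts, 6 fell and 2 rose, while 7.87% of all rows in that fit fell and 7.54% rose. The names that fell were NPF5.2 (log2 fold change -1.69 ± 0.11 SE, adjusted p = 1.4e-07), NPF4.5 (-0.62 ± 0.10), NPF8.1 (-0.60 ± 0.09), NPF6.1 (-0.48 ± 0.10), NPF8.3 (-0.45 ± 0.09) and NPF4.4 (-0.44 ± 0.09). Of the 4 tested NPF6.1-like genes only 1 fell by itself, and their median log2 fold change was 0.01. Of the 6 tested NPF4.4-like genes 2 fell by themselves, with a median of -0.17 over the 6. Copies can carry different names, as in subfamily 4, and summing by name does not undo a division of reads among those. NPF7.3 rose by 1.22 ± 0.29 (adjusted p = 0.048) and NPF2.3 by 0.33 ± 0.10 (adjusted p = 0.034). Neither rise passed without 0N replicate 1, without 2N replicate 1 or without 2N replicate 3, while 6 to 8 names fell whichever library was left out.

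NPF2.3 of Arabidopsis exports nitrate from root cells towards the xylem. Its 17 wheat matches divided by position. At 1 set of neighbouring genes, on 7A (TraesCS7A02G054000 and TraesCS7A02G054100), 7D (TraesCS7D02G049300 and TraesCS7D02G049400) and 4A (TraesCS4A02G440400 to TraesCS4A02G440700), all 8 genes rose, by 0.48 to 1.00 on the log2 scale. The long arm of wheat chromosome 4A is known to carry a segment that came from 7B. At the other set, on 7A, 7B and 7D (identifiers beginning TraesCS7A02G121, TraesCS7B02G020 and TraesCS7D02G1198 to TraesCS7D02G1202), 3 of 7 tested genes fell and 4 did not pass. The remaining 2 matches, on chromosomes 5A and 5B, were untested. Both sets were drawn up after the values were seen.

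The summed level of the set that rose was 65.1, 71.3 and 81.8 CPM in the 0N libraries and 119, 111 and 117 CPM in 2N. All 3 nitrate libraries lay above all 3 without nitrate. The summed level of the other set was 64.5, 65.5 and 75.9 CPM in 0N and 63.8, 59.5 and 64.5 CPM in 2N. Its highest 2N value matched its lowest 0N value to 3 digits, so these groups were not separated.

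TraesCS7A02G054000, the most abundant NPF2.3-like gene, had 23.7, 26.3 and 27.8 CPM in 0N and 41.7, 42.7 and 39.2 CPM in 2N. Its log2 fold change was 0.67 ± 0.10 SE (adjusted p = 0.00022). TraesCS7D02G049300 had 6.84, 7.90 and 8.22 CPM in 0N and 13.6, 13.9 and 13.2 CPM in 2N. It rose by 0.82 ± 0.12 (adjusted p = 0.00018), and neither gene's groups overlapped.

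Among the genes of the other set, TraesCS7D02G119800 had 11.2, 10.01 and 12.2 CPM in 0N and 7.27, 7.27 and 7.01 CPM in 2N. It fell by 0.63 ± 0.12 on the log2 scale (adjusted p = 0.0023). TraesCS7B02G020300, at 2.50, 1.75 and 2.58 CPM in 0N, had 0.841, 0.815 and 1.21 CPM in 2N, a log2 fold change of -1.25 ± 0.27 (adjusted p = 0.0055). All 3 libraries with nitrate lay below those without in both genes. The most abundant gene of this set, TraesCS7D02G120200, named after its values were seen, stood at -0.05 on the log2 scale with an adjusted p of 0.80 and overlapping groups. No count of the 8 genes that rose was whole in any library, so the division of reads among copies is uncertain. Of the 8 rises 5 kept their call whichever library was left out. TraesCS7A02G054100 (adjusted p = 0.044) lost its call under every one of the 6 omissions, TraesCS4A02G440600 under 4 of them, and TraesCS4A02G440700 without 0N replicate 1, the setting that left 5 rises in subfamily 2.

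**Figure D3:**
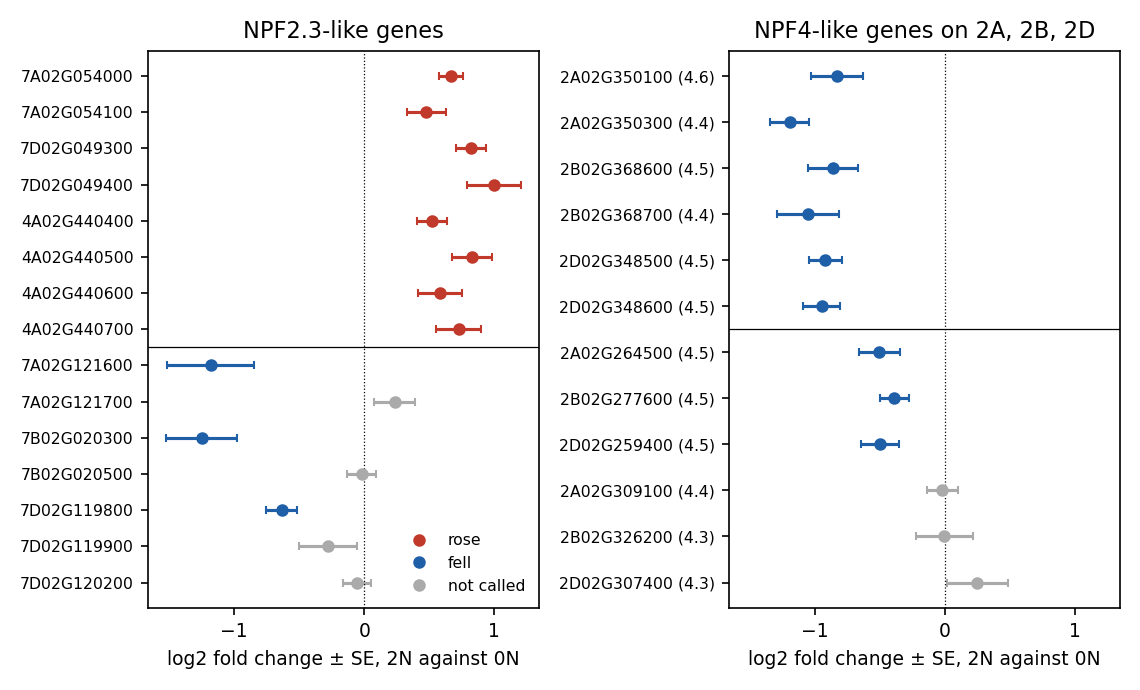
Log2 fold change ± SE (2N against 0N) of tested NPF2.3-like genes (left; the 8 genes above the line are those on 7A, 7D and 4A that rose) and of tested NPF4-like genes on 2A, 2B and 2D (right; best-match number in brackets; the 6 genes above the line are the neighbours described as a set in the text). Colours give the call: 8 of 8 genes rose above the left line and none of the 7 below it, and on the right 9 genes fell while the bottom 3 did not pass.

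NPF7.3, known as NRT1.5 in Arabidopsis, loads nitrate into the xylem. It has 5 matches in wheat, of which the 3 tested genes lie on 6A, 6B and 6D. TraesCS6A02G263500 had 15.5, 13.99 and 28.02 CPM in 0N and 60.5, 49.7 and 71.2 CPM in 2N. It rose by 1.66 ± 0.31 (adjusted p = 0.021), the largest rise among the tested members. TraesCS6B02G290500 had 36.0, 28.8 and 52.6 CPM in 0N and 66.1, 69.7 and 83.4 CPM in 2N, and rose by 0.90 ± 0.22 (adjusted p = 0.033).

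The copy on 6D, TraesCS6D02G251500, which the rule for named genes did not pick, had 20.9, 14.1 and 39.8 CPM in 0N and 57.1, 58.5 and 66.2 CPM in 2N. Its log2 fold change of 1.28 ± 0.41 did not pass (adjusted p = 0.12), although it did with DESeq2 (adjusted p = 0.037). In all 3 copies the 2N libraries lay above the 0N libraries, and 0N replicate 3, the library with the most green marker RNA, was the highest of the 0N libraries. Whether that RNA plays a part in its NPF7.3-like values was not tested.

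Without 0N replicate 3 the log2 fold changes were 2.02, 1.16 and 1.77 for the copies on 6A, 6B and 6D, with adjusted p-values of 3.3e-06, 9.6e-05 and 1.9e-05, so that all 3 passed. Without 0N replicate 2 the copies on 6A and 6B passed (adjusted p = 0.041 and 0.024), as they did with DESeq2 (4.8e-05 and 7.4e-06). Without 0N replicate 1, 2N replicate 1, 2N replicate 2 or 2N replicate 3 none of the 3 passed, with adjusted p-values of 0.05 to 0.32 and log2 fold changes of 0.80 to 1.78. The copy on 6B also missed the threshold with library totals (adjusted p = 0.061) and with limma on TPM (0.054 and 0.056), and neither of the copies on 6A and 6B passed without a filter. Together the 3 copies made up 3.22% of the family's TPM in 0N and 8.62% in 2N.

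NPF2.11 is the glucosinolate transporter GTR2 in Arabidopsis, although grasses do not make glucosinolates. The 3 NPF2.11-like genes on 4A, 4B and 4D were the most abundant NPF genes of these roots and held 34.7% of the family's TPM in 0N and 35.3% in 2N. The most abundant of all, TraesCS4D02G026800, had 376, 385 and 432 CPM in 0N and 344, 310 and 324 CPM in 2N. These groups did not overlap, but the difference did not pass the threshold (log2 fold change -0.29 ± 0.10, adjusted p = 0.061). It passed without 0N replicate 1 (adjusted p = 0.049) or 0N replicate 2 (0.039), with DESeq2 (0.037), with library totals (0.01) and with limma on TPM (0.024). TraesCS4B02G029600 and TraesCS4A02G283900, chosen after their values were seen, stood at -0.05 ± 0.09 and -0.06 ± 0.09 with overlapping groups.

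TraesCS5D02G045300 was the NPF2.11-like gene that fell, from 1.43, 1.69 and 1.76 CPM in 0N to 0.36, 0.407 and 0.726 CPM in 2N (log2 fold change -1.70 ± 0.33, adjusted p = 0.0025). It stands at 0.74 TPM in 0N, against 189 TPM for TraesCS4D02G026800. The other 9 NPF2.11-like genes were untested.

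Subfamily 4 holds the ABA importers of Arabidopsis, where NPF4.6 also carries nitrate at low affinity. Of 19 tested genes 9 fell and 10 did not pass, and all 9 falls lie on 2A, 2B and 2D. At 1 set of neighbours on these chromosomes, drawn up after the values were seen, all 6 tested genes fell, by 0.83 to 1.19 on the log2 scale. Their best matches were NPF4.4, NPF4.5 and NPF4.6, so copies in like positions carried different names. Their summed level was 61.9, 49.6 and 50.6 CPM in 0N and 31.8, 24.2 and 26.6 CPM in 2N. No library with nitrate reached the lowest library without it.

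TraesCS2A02G350300, similar to NPF4.4, had 11.2, 8.501 and 9.81 CPM in 0N and 4.27, 3.84 and 4.84 CPM in 2N (log2 fold change -1.19 ± 0.15, adjusted p = 7.1e-05). TraesCS2D02G348600, the most abundant gene of the subfamily and similar to NPF4.5, went from 20.6, 16.2 and 17.3 CPM to 11.5, 8.03 and 8.53 CPM (-0.95 ± 0.14, adjusted p = 4e-04). Its neighbour TraesCS2D02G348500 had 10.7, 9.53 and 10.2 CPM in 0N and 5.47, 4.95 and 5.68 CPM in 2N (-0.92 ± 0.13, adjusted p = 0.00016). The groups did not overlap in any of these genes. The other 3 falls were NPF4.5-like genes elsewhere on the same chromosomes, with smaller differences of -0.50 to -0.39. None of these 3 kept its call under every omission of a library. The remaining 3 tested genes of the subfamily on 2A, 2B and 2D, similar to NPF4.3 or NPF4.4, did not pass, with log2 fold changes of -0.02 to 0.25. Of the 6 falls among the neighbours 5 kept their call under every omission of a library. TraesCS2A02G350100, similar to NPF4.6 and named after its values were seen, lost its call without 0N replicate 1. The 3 other tested NPF4.6-like genes, on 7A, 7B and 7D, did not pass, with log2 fold changes of -0.28 to 0.57.

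NPF5.2 of Arabidopsis, also called PTR3, is a peptide transporter induced by wounding. Its matches held the largest falls of the family. TraesCS1D02G147400 had 55.8, 44.1 and 54.9 CPM in 0N and 13.0, 11.35 and 7.80 CPM in 2N (log2 fold change -2.27 ± 0.17, adjusted p = 9.4e-06). TraesCS1B02G168100 had 26.9, 24.9 and 26.7 CPM in 0N and 6.55, 3.14 and 4.47 CPM in 2N (-2.47 ± 0.19, adjusted p = 1.4e-05). TraesCS1A02G150400 had 29.1, 24.3 and 27.9 CPM in 0N and 8.23, 6.69 and 4.23 CPM in 2N (-2.08 ± 0.19, adjusted p = 5e-05). The highest 2N library lay well below the lowest 0N library in each of the 3 genes, and the calls held whichever library was left out.

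Close to each of them by identifier number lies another NPF5.2-like gene, and these 3 neighbours did not pass. They stood at -0.24 on 1A, -0.55 on 1B and 0.25 on 1D (log2), with overlapping groups. The 3 genes that fell summed to 58.2 ± 7.35 TPM in 0N and 11.3 ± 2.92 TPM in 2N, and their neighbours to 9.14 ± 2.13 and 7.40 ± 0.671 TPM (SD, n = 3). These sets were also drawn up after the values were seen. The fourth NPF5.2-like fall was TraesCS3D02G189500, also named after its values were seen, with 1.78 TPM in 0N and a log2 fold change of -1.05 (adjusted p = 0.03). Its call was lost in 5 of the 6 omissions of a library, and 6 of the 13 alternatives kept it.

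Under the other names of subfamily 5, the genes that passed were all similar to NPF5.10. Both tested NPF5.1-like genes, with a median log2 fold change of -0.86, and all 3 tested NPF5.14-like genes, with a median of -0.61, did not pass. Of 26 tested NPF5.10-like genes 3 fell, by 0.42 to 0.64 on the log2 scale, and 1 rose, while 7.93% of all tested genes fell and 7.57% rose. Each of the 3 falls lost its call without 2N replicate 1 and also without 2N replicate 3. The gene that rose was TraesCS1B02G279900. It had 0.832, 0.663 and 0.411 CPM in 0N and 1.26, 1.34 and 1.69 CPM in 2N, all of the latter higher (log2 fold change 1.16 ± 0.32, adjusted p = 0.024). Its call was lost without 0N replicate 2 (adjusted p = 0.059), 0N replicate 3 (0.1) or 2N replicate 3 (0.11). The most abundant gene of the subfamily, the NPF5.13-like TraesCS3A02G382900, had 34.7, 35.1 and 34.9 CPM in 0N and 37.3, 34.9 and 37.0 CPM in 2N. The interval of its log2 difference ran from -0.11 to 0.23 (95% interval around 0.06, adjusted p = 0.72). This interval was made from the SE with a normal distribution, so it is narrower than the test's own distribution would give. The difference was -0.03 with library totals, -0.04 with limma on TPM. Of the subfamily's 7 falls, 4 were left without 0N replicate 1, and 3 without 2N replicate 1 or without 2N replicate 3.

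Subfamily 8 carries peptides of a few residues: in Arabidopsis NPF8.1 (PTR1) at the plasma membrane, NPF8.3 (PTR2) and NPF8.5 (PTR6) at the vacuole. It had 29 falls and 2 rises among 75 tested genes, with negative log2 fold changes in 59 of them. The falls were 20 of 58 tested genes similar to NPF8.3, 5 of 9 similar to NPF8.5 and 4 of 6 similar to NPF8.1. Among all tested genes 7.93% fell and 7.57% rose. With the counts of its copies summed, NPF8.5 did not pass (log2 fold change -0.02 ± 0.10, adjusted p = 0.92). Of the 29 falls 16 kept their call whichever library was left out (21 to 26 falls in each omission). By mean TPM over the 6 libraries the most abundant gene of the subfamily fell and the next, TraesCS6B02G076100, rose.

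TraesCS4A02G262700, similar to NPF8.3, had 62.5, 60.2 and 61.6 CPM in 0N and 34.96, 36.7 and 33.6 CPM in 2N (log2 fold change -0.81 ± 0.09, adjusted p = 2.1e-05). TraesCS4B02G052200 had 33.0, 33.0 and 34.7 CPM in 0N and 17.2, 19.7 and 18.3 CPM in 2N (-0.87 ± 0.09, adjusted p = 1.9e-05). The spread within each group was small beside the gap between the groups. The NPF8.1-like TraesCS3D02G056300 had 35.4, 34.2 and 38.9 CPM in 0N and 18.7, 22.4 and 19.9 CPM in 2N (-0.83 ± 0.10, adjusted p = 5.4e-05). These 3 genes kept their calls under all 13 alternatives.

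Further NPF8.3-like falls came in sets of copies, which were grouped after the values were seen. With the copy on 4D, the group 4 set summed to 72.9 ± 4.26 TPM in 0N and 39.9 ± 1.50 TPM in 2N. On 7A, 7B and 7D a row of neighbours held 2 such sets, 1 that went from 57.0 ± 4.08 to 31.9 ± 4.11 TPM and 1 that went from 15.2 ± 1.65 to 7.37 ± 0.356 TPM (SD, n = 3). In each of these 3 sets all 3 genes fell. The 3 NPF8.5-like genes on 1A, 1B and 1D also fell, by 0.56 to 0.73 on the log2 scale. The NPF8.3-like genes beside them stood at 0.02 to 0.25, summed to 17.5 TPM in both groups, and none of them passed.

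The 2 rises of subfamily 8 lie on 6A and 6B. The NPF8.5-like TraesCS6B02G076100 had 28.4, 27.1 and 25.0 CPM in 0N and 64.2, 47.3 and 51.0 CPM in 2N (log2 fold change 1.01 ± 0.12, adjusted p = 3.3e-05). The NPF8.3-like TraesCS6A02G056500 had 13.5, 12.6 and 12.6 CPM in 0N and 22.7, 16.1 and 18.8 CPM in 2N (0.57 ± 0.12, adjusted p = 0.0055). All libraries with nitrate lay above those without in both genes. With limma on TPM the second of them did not pass (adjusted p = 0.069).

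**Figure D4:**
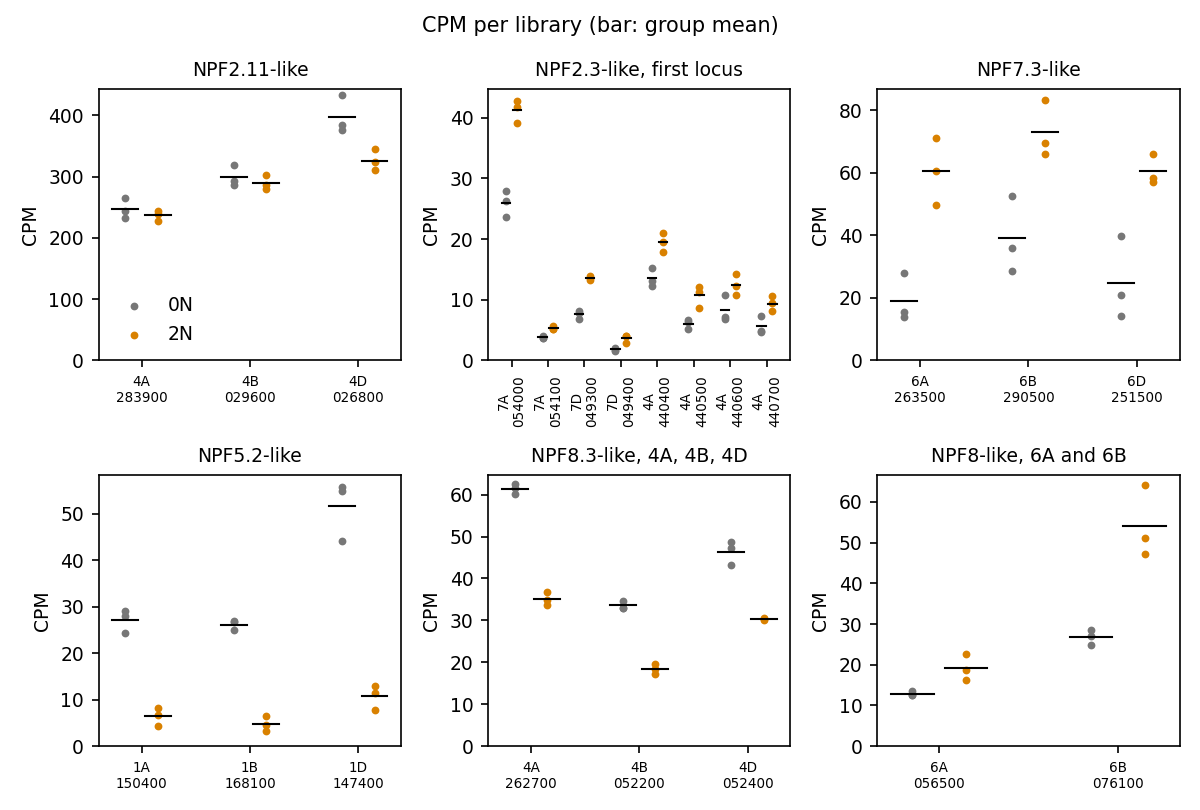
CPM (TMM-scaled) per library of genes from 6 sets of copies, each point a library and each bar a group mean (grey 0N, orange 2N, n = 3); labels give the chromosome and the last digits of the identifier. The 3 NPF5.2-like genes drop to between 3.14 and 13.0 CPM in 2N, while the 3 NPF7.3-like genes are higher in 2N with a raised 0N library in each.

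The small subfamilies had few tested genes. NPF3.1 of Arabidopsis takes up gibberellin and nitrate in the root endodermis. Among its 7 tested matches TraesCS1D02G256700 rose, from 1.49, 1.57 and 1.35 CPM in 0N to 2.94, 2.21 and 2.298 CPM in 2N (log2 fold change 0.76 ± 0.22, adjusted p = 0.034). Its call held in only 3 of the 13 alternatives, and of the omissions only that of 2N replicate 2 kept it. TraesCS7B02G113600 fell, from 2.79, 3.26 and 3.17 CPM to 1.08, 1.63 and 1.75 CPM (-1.04 ± 0.23, adjusted p = 0.0055), without overlap. The most abundant NPF3.1-like gene, TraesCS1B02G267900, had 6.06, 5.61 and 4.52 CPM in 0N and 8.29, 5.18 and 6.89 CPM in 2N (0.33 ± 0.18, adjusted p = 0.26), with overlapping groups.

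In subfamily 6, the NPF6.1-like TraesCS3B02G095900 had 13.3, 17.2 and 13.2 CPM in 0N and 8.17, 8.61 and 8.47 CPM in 2N (-0.79 ± 0.13, adjusted p = 0.00059). It was the most abundant of the subfamily, and the groups did not overlap. The 3 other tested NPF6.1-like genes did not pass, with log2 fold changes of -0.21 to 0.45. None of the 3 tested genes similar to NPF6.4 passed. The gene with no subfamily number, TraesCS7D02G209300, did not pass either (-0.26 ± 0.28, adjusted p = 0.61). It had 1.31, 1.51 and 1.12 CPM in 0N and 0.961, 1.34 and 0.968 CPM in 2N, although its deposited level is 13.1 TPM in 0N.

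Members whose identifier numbers lie within 500 of each other on a chromosome formed 62 groups with 190 of the 293 members. These groups held 49 of the 65 members that rose or fell. Most members, called or not, lay in such groups, and whether calls gather in them was not tested. In 11 groups at least 2 members passed, and in all 11 they passed in a single direction, 8 downward and 3 upward. Most called members fell, and whether neighbours share a direction more often than other members was not tested. The downward groups on 4B and 4D also held tested genes with log2 fold changes of up to 0.59 and 0.50. In the other downward groups every tested fold change was negative. These 11 groups held 24 called members. The other 25 were each the only called member of their group, and 11 of those 25 groups also held a tested gene whose fold change had the opposite sign. The 3 upward groups are the NPF2.3-like genes on 7A, 7D and 4A. Sets were also defined by the best-match name and the chromosome group alone, and these can span several positions. Of 30 such sets with members on A, B and D chromosomes, 12 had at least 2 called members. Of these 12, 3 held both rises and falls. The counts for these sets and for the neighbours are not comparable. By subgenome, 14 of 63 tested genes fell on A, 18 of 56 on B and 19 of 65 on D chromosomes, while 8, 3 and 3 rose. Among all tested genes 7.93% fell and 7.57% rose. The rises on A include the NPF2.3-like genes on 7A and 4A, none of whose counts was whole. Neighbours and copies share sequence, and 53 of the 65 called members had a count that was not whole in at least 1 library. They are not independent observations.

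Many of the other genes of nitrate transport and reduction moved upward in the same libraries, where 7.57% of all tested genes rose and 7.93% fell. NRT2 and NAR2, the high-affinity nitrate uptake system and its partner proteins, had 45 genes. Of the 31 tested, 25 rose and 1 fell, and of 9 tested NPF6.3-like genes 6 rose and 1 fell. All 11 tested genes of nitrate and nitrite reduction rose. Of 25 tested genes similar to CLC channels, a family that in Arabidopsis includes a vacuolar nitrate exchanger, 12 rose and 13 did not pass, and their median log2 fold change was 0.79. The most abundant of them, the CLC-c-like TraesCS2D02G308100, had 68.9 ± 6.36 CPM without nitrate and 64.4 ± 3.38 CPM with it (-0.10 ± 0.10, adjusted p = 0.58). Of 37 S-type anion channel genes only 10 were tested, of which 8 rose and 2 did not pass. They were led in level by the SLAH1-like TraesCS3B02G199200, from 5.27 ± 1.19 to 17.8 ± 2.02 CPM (1.76 ± 0.15, adjusted p = 3e-06). Plasma membrane proton pumps build the gradient that NPF carriers use. Of 12 genes with plasma membrane ATPase in their name 6 were tested, and none of these passed the test in either direction. The 12 genes summed to only 13.1 TPM in 0N and 12.3 TPM in 2N, and any pump genes under other names were not covered. With edgeR and with DESeq2 alike, 0 of the 6 had an unadjusted p under 0.05.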

How the data were processed

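The authors deposited a table with read counts and TPM (a length-scaled abundance) for each gene and library, per the file headers. The deposited read counts were treated as estimated counts because many are not whole. The deposited TPM values are scaled per gene length and to the same total in each library. HISAT and Bowtie2 are named in the submitters' processing notes; no source used here gives their versions and roles, the counting program, the strand setting, the genome build or the annotation. Of the deposited counts 45.1% were not whole numbers (tolerance 1e-06), and for the family this held for 41.5%. A further 12 per-sample columns and 8 group-mean columns of the table were not used.

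Expected counts were rounded to whole numbers and analysed in R 4.3.3 with edgeR 4.0.16 (TMM scaling, filterByExpr with a minimum count of 10 and a minimum total of 15, robust quasi-likelihood fit, group as the only term, 2-sided test). P-values were adjusted by the Benjamini-Hochberg method over all 54313 tested genes, with a threshold of 0.05. SEs were obtained from the size of the log2 fold change over the root of its F statistic. Fits were tested on simulated data. Fits with DESeq2 1.42.0, with limma 3.58.1 on log2(TPM + 1) and log2(TPM + 0.1) for genes with a mean TPM of at least 0.5, with library totals, with no filter, with a mean CPM of at least 1, with a replicate block and without each library in turn were the alternatives. Summed CPM in place of summed TPM, and the summed level without each library, were added after seeing the data.

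Genes were named by rule: in each subfamily up to 2 rises and 3 falls with the smallest p, and the gene with the highest mean TPM, the last also in each list of other genes; further member genes given with values of their own were chosen after their values were seen. The members and lists were chosen with earlier results of these data known. None of the identifiers matched the 155467 genes of the RefSeq table at hand, so positions are read from the chromosome and number within each identifier.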

Additional observations from a re-analysis of the deposited data

How the results depend on the processing

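The excess of falls over rises held in every alternative run, with 37 to 55 falls and 6 to 14 rises where no fold threshold was set. No called gene changed sign. Of the 14 rises 5 were kept in all 13 alternatives, and of the 51 falls 28. DESeq2 gave 12 rises and 38 falls, 11 and 37 of them the same genes. Both limma fits on TPM gave 6 rises. A log2 fold change of at least 1 left 3 rises and 18 falls. Leaving out each library in turn gave 8 to 14 rises and 37 to 49 falls, 0 to 2 summed names that rose, medians of -0.31 to -0.17 for subfamily 5 and -0.44 to -0.17 for the gene with no subfamily number. No summed name rose with library totals (0), and 1 rose with no filter. Medians moved to -0.33 (library totals) and -0.32 (limma on TPM + 0.1) in subfamily 5, to 0.22 in subfamily 6 with no filter, and to -0.61 (library totals), -0.32 (limma on TPM + 1) and -0.36 (stricter filter) in subfamily 8. Library totals shifted the median of all genes by -0.09 and TPM by -0.10. In summed CPM the log2 ratios were -0.08, -0.45, -0.45, -0.36 and -0.38 for subfamilies 2, 4, 5, 6 and 8, against -0.17, -0.58, -0.54, -0.54 and -0.51 in TPM. TraesCS3A02G382900, which was not called, stood at -0.03 with library totals and at -0.04 in both limma fits. For these differences the cause was not tested.

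Same-numbered libraries of the groups did not deviate together (correlations over genes of -0.005, -0.106 and 0.026), and not every library correlated best with its own number. Such correlations cannot exclude that the numbers pair the libraries for some genes, and whether they do was not tested. With a replicate block 13 members rose and 47 fell, and 1 summed name rose; the NPF7.3-like copies on 6A, 6B and 6D passed (adjusted p = 8.1e-06, 0.00045 and 0.028). Counts limit what can be said of the 108 untested members, which had a median of 4.5 counts over the 6 libraries.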
